A study of Mus musculus with 17 samples.

Results

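The genes described here are 7 genes of peroxisomal fatty acid oxidation, carrier traffic and peroxisome proliferation: Ehhadh, Hsd17b4, Acaa1a, Acaa1b, Crot, Abcd3 and Pex11a. They were taken by symbol, and all 7 were among the 12334 genes of the RNA table. All H3K9ac regions whose nearest start site was assigned to one of them were taken as well, which gave 46 of 57499 regions. The livers came from C57BL/6 mice on a high-fat diet (HFD, 60% of calories from fat) or a control diet (CD, 18% of calories from fat), each given for 10 weeks. RNA was sequenced from 4 HFD livers (A, B, C, D) and 4 CD livers (A, B, C, D) after poly(A) selection. H3K9ac, an acetylation of histone H3 found at active start sites and enhancers, was measured by ChIP-seq in 3 HFD livers (A, B, D) and 3 CD livers (A, C, D). The labels give no age, sex, genetic change or other agent, and 1 CD input and 2 CD ATAC-seq libraries were not analysed here.

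Peroxisomes shorten very long, branched and dicarboxylic fatty acids that mitochondria handle poorly. A transporter in the membrane brings in the acyl-CoA, a first oxidation gives off hydrogen peroxide, a bifunctional enzyme carries out hydration and dehydrogenation, and a thiolase cuts off acetyl-CoA. The shortened chain leaves as a carnitine ester for the mitochondrion. In rodent liver many of these genes are targets of the nuclear receptor PPAR-alpha, and its agonists make peroxisomes multiply, with PEX11 proteins elongating and dividing the membrane.

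The diets differed in a small share of what was measured for these genes. Pex11a RNA fell in HFD livers, to 27.6 ± 4.71 CPM, against 40.0 ± 3.22 CPM in CD livers (SD, n = 4 each), and no other member passed the test in the RNA. Around Crot, 5 H3K9ac regions fell in HFD livers, 3 inside the gene and 2 upstream of it, to between 0.396 and 0.503 times the CD level. The H3K9ac region over the start site of each of the 7 genes, Crot included, did not pass the test.

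RNA libraries held 31802893 to 37596560 counts in HFD livers and 32632118 to 35643097 in CD livers, and H3K9ac libraries held 9255635 to 11725503 in HFD livers and 10080116 to 12149497 in CD livers. The design gives 4 mice without saying whether each letter is a separate mouse, so p-values measure the spread between these samples. Each RNA column heading begins with a number of its own, lower for HFD than for CD libraries. What these numbers stand for is not stated. Nor do the labels say whether a letter marks the same liver in the RNA and in H3K9ac. Hepatocyte markers were abundant: 11 of 12 were measured, their summed level was 126865 to 146714 CPM in HFD livers and 112261 to 125763 CPM in CD livers, and none was at 0. In edgeR 1 of the 11 passed, Cyp2e1, which was higher in HFD livers (log2 fold change 0.61, adjusted p = 0.0119), and DESeq2 called 2 higher and 1 lower. Among cholangiocyte markers 1 of 5 passed as lower in HFD livers in edgeR (Sox9, log2 fold change -1.45, adjusted p = 0.00987). At an unadjusted p under 0.05, 3 were lower and 0 higher, and DESeq2 called 1 lower and 0 higher. Their mean log2 level, relative to the CD mean, was -1.10, -0.66, -1.07 and -0.53 in HFD livers A to D. The summed level of these markers was 35.5 to 61.0 CPM in HFD livers and 57.7 to 68.5 CPM in CD livers. The part of these cells in the results was not tested. In bulk tissue, fewer cells of a type and less RNA per cell cannot be told apart.

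The sequence around 4 of the start sites is given because Crot and Pex11a carry the differences just named without a call at their start-site regions, and because Acaa1a and Acaa1b are paralogs. Each runs from 250 bases before to 50 after the RefSeq start (GRCm38.p6), in the direction of the gene, with CCAAT or its reverse complement ATTGG in capitals. For Pex11a the RefSeq start differs from the authors': the window lies wholly upstream of the gene as they place it (chr7:79737264-79743025). Crot (chr5:8997097-8997396, minus strand) had 69.7% G and C, Pex11a (chr7:79743082-79743381, minus strand) 57.3%, Acaa1a (chr9:119341044-119341343, plus strand) 53.3% and Acaa1b (chr9:119157044-119157343, minus strand) 43.7%, against a median of 52.7% over 32851 windows.
Crot: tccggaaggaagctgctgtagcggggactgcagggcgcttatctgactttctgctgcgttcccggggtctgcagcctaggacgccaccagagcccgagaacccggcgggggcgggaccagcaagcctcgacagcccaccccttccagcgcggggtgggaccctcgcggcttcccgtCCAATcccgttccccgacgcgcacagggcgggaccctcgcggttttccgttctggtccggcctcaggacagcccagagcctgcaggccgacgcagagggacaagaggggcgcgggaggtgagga
Pex11a: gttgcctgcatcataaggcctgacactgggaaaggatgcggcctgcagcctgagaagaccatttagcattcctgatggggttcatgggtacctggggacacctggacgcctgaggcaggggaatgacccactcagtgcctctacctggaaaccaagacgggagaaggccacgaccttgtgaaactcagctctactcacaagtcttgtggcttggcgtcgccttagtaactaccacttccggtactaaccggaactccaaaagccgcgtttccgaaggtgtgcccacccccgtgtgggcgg
Acaa1a: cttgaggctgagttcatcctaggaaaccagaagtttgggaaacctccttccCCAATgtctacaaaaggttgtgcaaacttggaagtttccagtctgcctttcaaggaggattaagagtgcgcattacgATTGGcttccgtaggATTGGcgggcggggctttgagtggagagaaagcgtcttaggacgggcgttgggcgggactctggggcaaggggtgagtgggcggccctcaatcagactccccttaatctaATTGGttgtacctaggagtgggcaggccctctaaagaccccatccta
Acaa1b: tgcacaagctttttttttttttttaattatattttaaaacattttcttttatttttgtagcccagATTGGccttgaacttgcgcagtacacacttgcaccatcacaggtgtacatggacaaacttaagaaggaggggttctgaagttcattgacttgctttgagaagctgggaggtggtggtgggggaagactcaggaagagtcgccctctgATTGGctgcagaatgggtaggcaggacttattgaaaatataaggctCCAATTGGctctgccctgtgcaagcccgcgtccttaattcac

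Windows were found for 6 of the 7 members, with 7 windows in all because Abcd3 has 2. The windows of Abcd3 and Pex11a do not hold the gene start that the authors' annotation gives. They were searched on both strands for the binding element of PPAR-alpha with its partner RXR, a direct repeat of AGGTCA with 1 base between the copies. An exact copy stood in 13 of 32851 windows (0.0396%) and a copy with up to 2 mismatches in 3.86%, and neither was in the 7 member windows. A single AGGTCA stood in 16.3% of all windows and in 0 of 7 member windows. The absence covers only these 300 bases. CCAAT, chosen after the sequences were seen, stood on either strand in 37.4% of all windows and in 4 of 7 member windows. Crot had 1, at position -74 from the start, Ehhadh had 1, at -38, and both thiolase genes had 4. A pair of those in Acaa1b overlap each other, in the run CCAATTGG. The start-site H3K9ac regions cover all 300 bases of the Crot, Pex11a and Acaa1a windows and 176 of the 300 bases of the Acaa1b window.

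Levels between genes can be set side by side on the deposited log2 FPKM scale, which is per length of transcript. Acaa1b stood highest, at 8.72 ± 0.60 in HFD livers and 8.89 ± 0.24 in CD livers. Crot was next (7.84 ± 0.32 in HFD livers, 8.31 ± 0.09 in CD livers). Then came Abcd3 (7.79 ± 0.10 in HFD livers, 7.93 ± 0.08 in CD livers) and Hsd17b4 (7.56 ± 0.07 in HFD livers, 7.64 ± 0.04 in CD livers). These 4 genes stood above 97.47% or more of all genes in CD livers. Ehhadh followed (6.54 ± 0.21 in HFD livers, 6.75 ± 0.18 in CD livers). Acaa1a (6.02 ± 0.32 in HFD livers, 5.87 ± 0.14 in CD livers) and Pex11a (4.96 ± 0.24 in HFD livers, 5.51 ± 0.12 in CD livers) were the lowest, and Pex11a still stood above 89.7% of genes in CD livers. In HFD livers the order was the same by the means, but the ranges of Acaa1b and Crot, of Crot and Abcd3, and of Ehhadh and Acaa1a overlapped. In CD livers no neighbours in the order overlapped.

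In the RNA, 1 of 7 members passed an adjusted p of 0.05 in edgeR's quasi-likelihood test, and it was lower in HFD livers. Of all 12334 genes 7.27% passed and 3.64% passed as lower, so a count of 1 among 7 reads as near that background. The diets did not overlap for 1 of 7 members, against 14.3% of all genes. The log2 fold change, HFD over CD, was negative for 6 of 7 members, with a median of -0.14, against a median of 0.01 over all genes.

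The bifunctional enzymes hydrate and dehydrogenate the enoyl-CoA. Ehhadh, the inducible L-bifunctional enzyme (mm10 chr16:21761285-21787834, minus strand), had 298, 304, 299 and 225 CPM in HFD livers A to D, against 294, 311, 310 and 387 CPM in CD livers A to D. HFD livers A, B and C lay inside the CD range, liver D below it, and CD liver D stood above all others. The log2 fold change was -0.21 (SE 0.13, adjusted p = 0.419). Hsd17b4, the D-bifunctional enzyme, which acts on straight and branched chains, had 520, 535, 487 and 481 CPM in HFD livers, against 541, 554, 524 and 529 CPM in CD livers. Liver B of HFD lay inside the CD range and the other HFD livers below it, a log2 fold change of -0.09 (95% interval -0.28 to 0.11, adjusted p = 0.667). This gene varied least between livers, with the highest HFD liver 1.11 times the lowest and the highest CD liver 1.06 times the lowest.

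The thiolases Acaa1a and Acaa1b complete each round of oxidation. They are close paralogs on chromosome 9 (Acaa1a at chr9:119341294-119350295, plus strand; Acaa1b at chr9:119148043-119157093, minus strand), so reads could be split between them and their separate values are uncertain. Acaa1b had 1140, 838, 586 and 439 CPM in HFD livers A to D, against 758, 679, 772 and 1001 CPM in CD livers. HFD livers spanned 2.59-fold, wider than the 1.47-fold of CD livers, and lay on both sides of the CD range. The log2 fold change was -0.10 (95% interval -0.66 to 0.47, adjusted p = 0.896), and it was 0.01 without HFD C, 0.09 without HFD D and 0.03 without CD D. Acaa1a had 147, 129, 95.8 and 93.9 CPM in HFD livers, against 112, 88.9, 105 and 106 CPM in CD livers. Its HFD livers stood in the same order, A, B, C, D, with A and B above every CD liver, and the log2 fold change was 0.18 (95% interval -0.16 to 0.51, adjusted p = 0.597).

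Markers of other liver cells moved across the HFD livers as well. The mean log2 level of 10 Kupffer cell and macrophage markers, relative to the CD mean, was -0.64, 0.04, 0.22 and 0.84 in HFD livers A to D, and that of 10 stellate cell markers was -0.64, -0.61, -0.02 and 0.32. For 10 sinusoidal endothelial markers it was -0.55, -0.27, 0.65 and 0.56, and for 11 hepatocyte markers 0.22, 0.21, 0.10 and 0.09. The summed level of the macrophage list was 144 to 391 CPM in HFD livers and 185 to 268 CPM in CD livers, that of the stellate list 311 to 538 CPM in HFD livers and 401 to 475 CPM in CD livers, and that of the endothelial list 137 to 298 CPM in HFD livers and 163 to 235 CPM in CD livers. None of these 30 markers was at 0 in all livers. In edgeR 0 of 30 passed, with 2 lower and 0 higher at an unadjusted p under 0.05, and 0 passed in DESeq2. Their part in the order of the thiolases among HFD livers was not tested.

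Crot, carnitine octanoyltransferase, turns medium-chain acyl-CoA into carnitine esters for export to mitochondria. It had 524, 581, 873 and 632 CPM in HFD livers A to D, against 849, 969, 899 and 845 CPM in CD livers. HFD livers A, B and D lay below every CD liver, while HFD liver C lay inside the CD range. The log2 fold change was -0.45 (SE 0.15, 95% interval -0.79 to -0.11) and did not pass (adjusted p = 0.117). It passed without HFD C (-0.62, adjusted p = 0.0108) and with DESeq2 (-0.45, adjusted p = 0.0484), and over all alternatives its adjusted p ran up to 0.287. The authors' deposited table gives Crot RNA an adjusted value of 0.0624.

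Abcd3, the 70-kDa membrane protein, is an ABC transporter that imports branched and dicarboxylic acyl-CoA (chr3:121758910-121815215, minus strand). It had 746, 824, 757 and 697 CPM in HFD livers, against 783, 811, 853 and 880 CPM in CD livers. HFD liver B lay inside the CD range and the others below it, and the log2 fold change of -0.14 did not pass (95% interval -0.35 to 0.07, adjusted p = 0.487).

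Pex11a, the PEX11 protein that peroxisome proliferators induce in rodents (chr7:79737264-79743025, minus strand), had 27.5, 33.9, 26.3 and 22.6 CPM in HFD livers A to D, against 36.1, 42.0, 38.7 and 43.1 CPM in CD livers. Every HFD liver lay below every CD liver. The log2 fold change was -0.53 (SE 0.13, 95% interval -0.82 to -0.25, adjusted p = 0.0316), or 0.690 times the CD level. The call was lost without HFD C (adjusted p = 0.0729), HFD D (0.066), CD B (0.0902), CD C (0.071) or CD D (0.0822), while the log2 fold change stayed between -0.66 and -0.45 over all alternatives. The authors' deposited table gives Pex11a RNA an adjusted value of 0.0053.

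**Figure D1:**
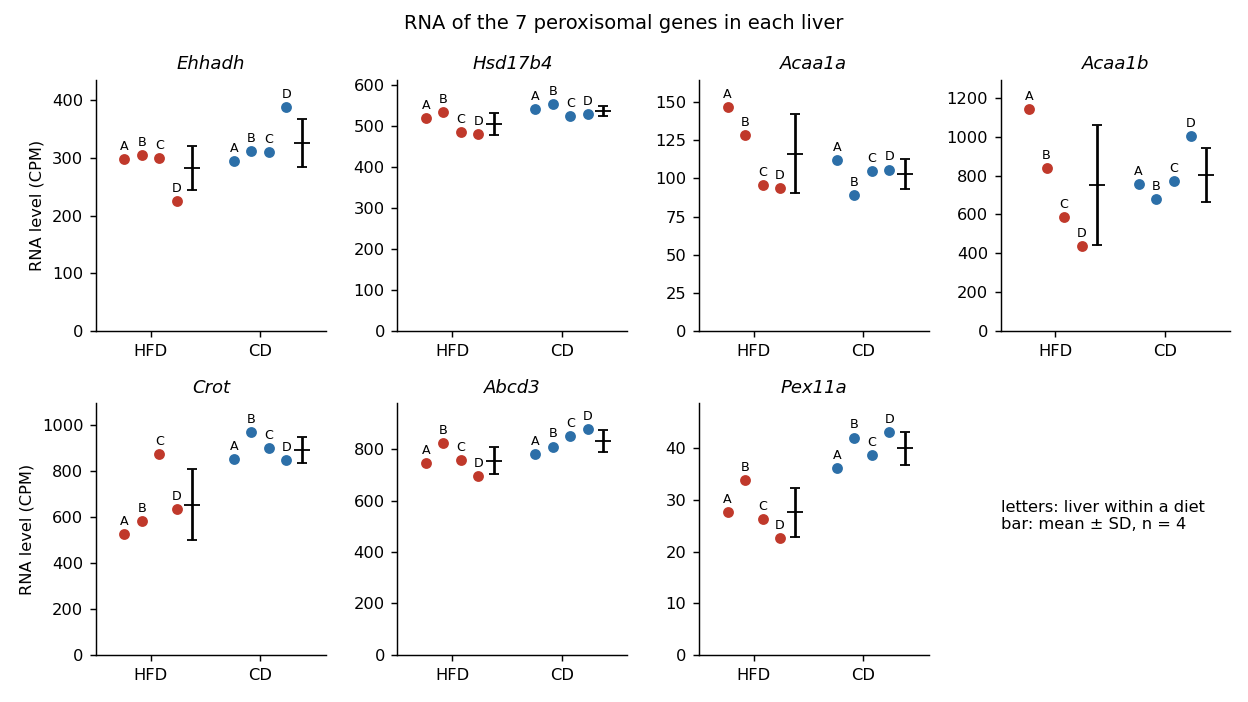
RNA level of the 7 genes in CPM (linear axes from 0, each panel with its own scale), with 1 point per liver, HFD in red and CD in blue, and the mean ± SD (n = 4) as a black bar. Pex11a is the panel in which the diets do not overlap, Crot has 1 HFD liver (C, 873 CPM) among the CD livers, and Acaa1b runs between 1140 and 439 CPM in HFD livers.

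The genes most like Pex11a across the 8 RNA libraries were found by the root mean square difference of centred log2 CPM, among 11496 genes with a mean of at least 1 CPM. They were Acsl1, a long-chain acyl-CoA synthetase (0.110), Dtx2 (0.113) and Zc4h2 (0.113), where the median gene differed by 0.387. Acsl1 fell to 1180 ± 113 CPM in HFD livers, against 1678 ± 58.3 CPM in CD livers (SD, n = 4 each; log2 fold change -0.51, SE 0.10, adjusted p = 0.0135). Dtx2 (log2 fold change -0.42, adjusted p = 0.140) and Zc4h2 (-0.57, adjusted p = 0.159) did not pass. The measure includes the diet difference itself.

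In H3K9ac, 5 of 46 member regions passed, all 5 lower in HFD livers and all 5 at Crot. Of all 57499 regions 2.39% passed and 1.55% passed as lower. Without Crot, 0 of 31 regions passed in edgeR (lowest adjusted p = 0.136) and 0 in DESeq2, while 2 were higher and 1 lower at an unadjusted p under 0.05. The diets did not overlap in 12 of 46 member regions, 10 lower and 2 higher in HFD livers, against 15.4% of all regions. Of those 12, 8 were at Crot, where 15 regions were assigned, and all 15 had a negative log2 fold change. Regions of 1 gene are not independent of each other.

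The 7 regions over start sites were the strongest of each gene. Their log2 fold changes lay between -0.08 (Abcd3) and 0.17 (Acaa1b), and the lowest adjusted p was 0.425. None passed in edgeR or DESeq2, and 1, that of Acaa1b, had an unadjusted p under 0.05. Taken over the 7, the 95% intervals ran from -0.26 to 0.34, so changes beyond that size lay outside every interval. Abcd3 had 181, 171 and 183 CPM in HFD livers A, B and D, against 176, 193 and 197 CPM in CD livers A, C and D. Acaa1b had 164, 152 and 134 CPM in HFD livers, against 115, 130 and 156 CPM in CD livers, over a region of 5347 bases that takes in much of the gene. The diets overlapped in both, and the Acaa1b region passed without HFD D (0.25, adjusted p = 0.0495) and without CD D (0.31, adjusted p = 0.034). The Pex11a region (chr7:79742439-79743399) had 62.2, 61.4 and 52.3 CPM in HFD livers, against 56.4, 58.8 and 55.1 CPM in CD livers, a log2 fold change of 0.05 (95% interval -0.13 to 0.23, adjusted p = 0.912). So the gene whose RNA fell had no detectable difference in the mark at its start at this depth.

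**Figure D2:**
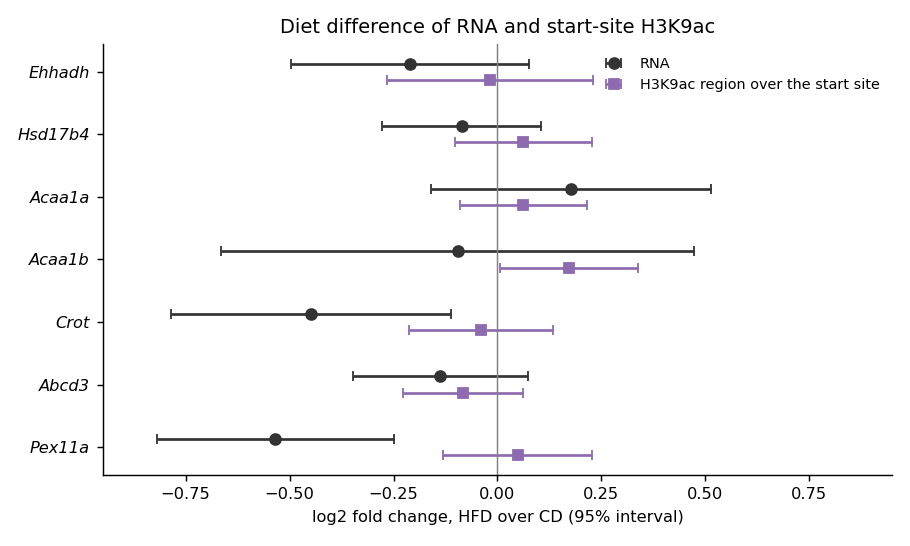
Log2 fold change, HFD over CD, with its 95% interval, for the RNA (black circles, 4 HFD and 4 CD livers) and for the H3K9ac region over the start site (violet squares, 3 HFD and 3 CD livers) of each gene. The RNA intervals of Pex11a and Crot lie below 0 (-0.82 to -0.25 and -0.79 to -0.11), and the start-site interval of Acaa1b lies just above 0, before adjustment over all features.

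Away from start sites, the non-Crot members held 4 regions in which the diets did not overlap, none of which passed. These members had 31 regions, start sites included, and 15.4% of all regions did not overlap, so the count is near that background. A region 4.04 kb upstream of the Acaa1b start (chr9:119160850-119161423) had 6.05, 6.08 and 4.06 CPM in HFD livers, against 3.30, 3.92 and 3.27 CPM in CD livers. Its log2 fold change was 0.64 (SE 0.22, adjusted p = 0.136), with 0.80 (adjusted p = 0.0257) without HFD D. A weaker region 14.2 kb downstream of the same start was also higher in HFD livers (1.55 ± 0.33 CPM in HFD livers, 0.964 ± 0.15 CPM in CD livers, SD, n = 3 each, adjusted p = 0.596). Inside Abcd3, regions 3.28 kb and 17.2 kb from the start were lower in HFD livers (log2 fold change -0.83, adjusted p = 0.374, and -0.34, adjusted p = 0.697). Ehhadh (2 regions), Hsd17b4 (4), Acaa1a (6) and Pex11a (2) had none, and their region log2 fold changes ran from -0.69 to 0.46.

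**Figure D3:**
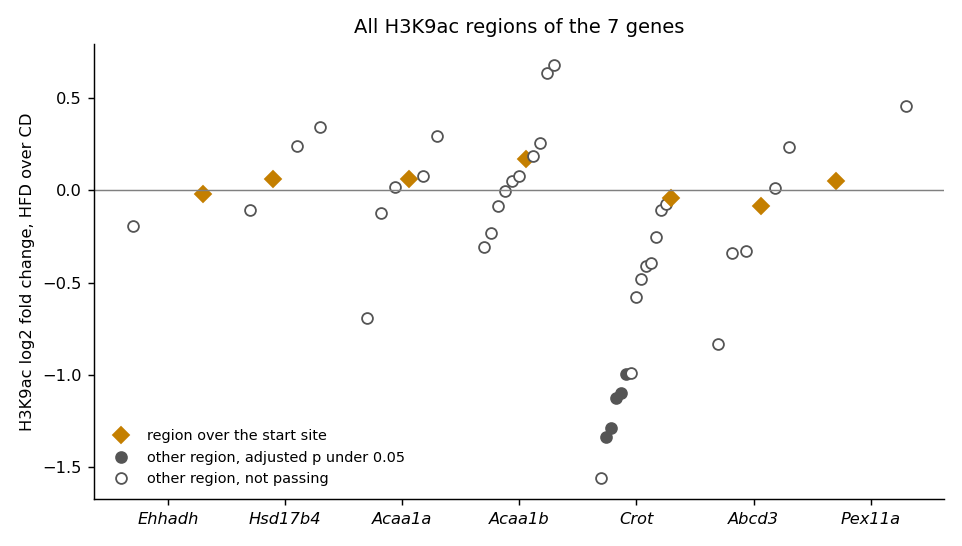
Log2 fold change, HFD over CD, of every H3K9ac region by gene (46 regions, 3 HFD and 3 CD livers). Diamonds are regions over start sites, none of which passed, filled circles passed and open circles did not. The 5 filled circles are all at Crot, between -1.34 and -0.99, and all 15 Crot points lie below 0.

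Crot lies at chr5:8966048-8997146 on the minus strand. The region over its start (chr5:8996140-8997871) held 60.0, 67.8 and 65.2 CPM in HFD livers A, B and D, against 62.0, 70.0 and 66.2 CPM in CD livers A, C and D. The diets overlapped there, with a log2 fold change of -0.04 (95% interval -0.21 to 0.13, adjusted p = 0.928).

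The nearest region inside the gene, 2.57 kb from the start and in an intron (chr5:8994222-8994926), fell to 2.81, 3.48 and 3.19 CPM in HFD livers, against 7.23, 8.58 and 8.12 CPM in CD livers. The next, at 4.48 kb (chr5:8992262-8993067, intron), fell to 3.24, 2.87 and 2.97 CPM in HFD livers, against 7.32, 7.42 and 7.43 CPM in CD livers. In both, every HFD liver lay at less than 0.5 times every CD liver, and the log2 fold changes were -1.34 (SE 0.21, adjusted p = 9.1e-06) and -1.28 (SE 0.21, adjusted p = 2.53e-05). Another intronic region at 6.42 kb (chr5:8990501-8990939) fell to 1.53, 1.74 and 1.54 CPM in HFD livers, against 3.04, 3.58 and 2.97 CPM in CD livers (log2 fold change -0.99, SE 0.27, adjusted p = 0.0312). It has few reads, and its call was lost when any 1 of the 6 libraries was left out (HFD A 0.147, HFD B 0.129, HFD D 0.0587, CD A 0.0688, CD C 0.204, CD D 0.0565, all adjusted p). The other intronic regions, at 5.5, 14.2 and 15.2 kb, overlapped between diets, with log2 fold changes of -0.58, -0.41 and -0.25 (adjusted p from 0.553 to 0.825).

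Upstream, 8 regions between 30.7 and 49.4 kb before the start were assigned to Crot. The region at 36.4 kb (chr5:9033276-9033833) fell to 2.47, 3.82 and 3.08 CPM in HFD livers, against 5.81, 7.25 and 7.03 CPM in CD livers (log2 fold change -1.10, SE 0.22, adjusted p = 0.000696). The region at 49.4 kb (chr5:9046354-9046746) fell to 2.73, 2.09 and 2.64 CPM in HFD livers, against 4.56, 5.92 and 5.74 CPM in CD livers (log2 fold change -1.12, SE 0.23, adjusted p = 0.00121), with an adjusted p of 0.0549 without HFD B. In both the diets did not overlap. The strongest of the 8, at 43.1 kb (chr5:9039774-9040660), missed the threshold at 13.03, 12.6 and 12.1 CPM in HFD livers, against 16.3, 18.0 and 18.3 CPM in CD livers (log2 fold change -0.48, adjusted p = 0.0532). The regions at 40.3 kb (log2 fold change -1.56, adjusted p = 0.084) and 30.7 kb (-0.99, adjusted p = 0.180) also lay below CD without overlap and did not pass. For the region at 40.3 kb the authors' deposited table gives an adjusted value of 0.0388. Those at 48.8, 46.9 and 37.8 kb overlapped between diets (adjusted p from 0.746 to 0.965). In RefSeq, 2 of the 8 lie in the long noncoding RNA gene Gm40264 (those at 40.3 and 37.8 kb), and the other 6 in no gene.

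**Figure D4:**
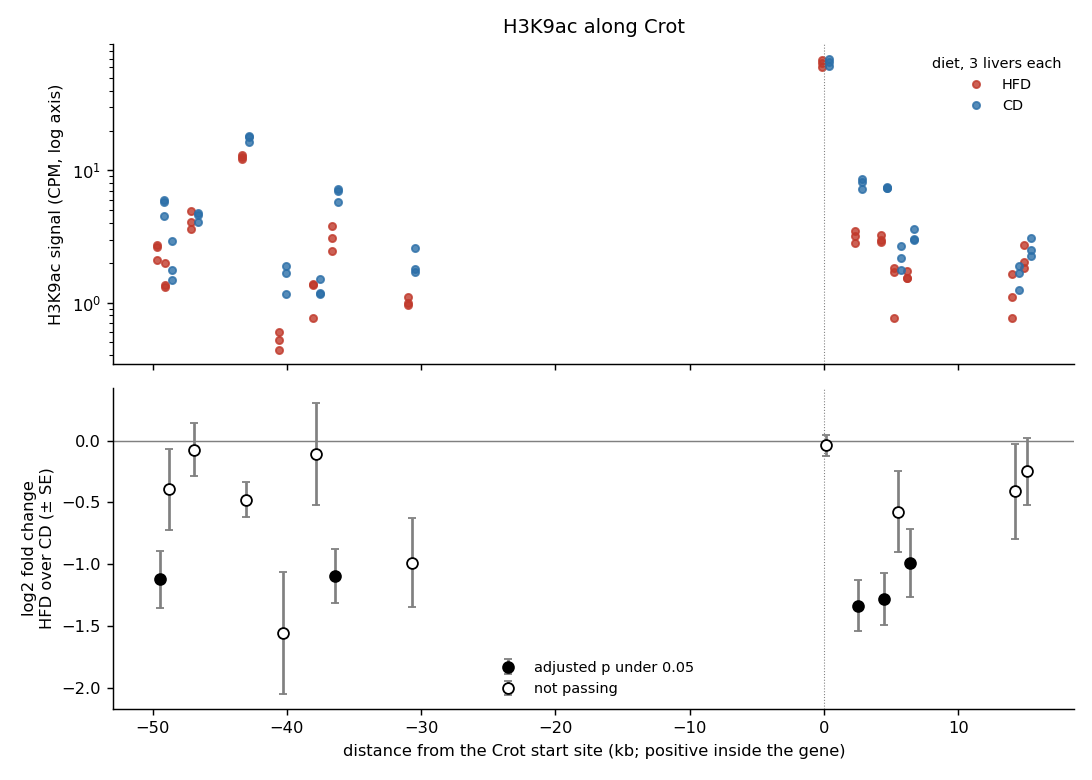
H3K9ac at the 15 Crot regions by distance from the start site in kb (positive inside the gene). The upper panel gives CPM per liver on a log axis (HFD red, CD blue, 3 livers each), and the lower panel the log2 fold change, HFD over CD, ± SE. The diets coincide at the start (64.3 ± 3.99 CPM in HFD livers, 66.1 ± 4.01 CPM in CD livers, SD), and the filled points mark the 5 regions that passed.

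Summed by position, the 6 regions inside Crot held 12.4, 13.4 and 11.97 CPM in HFD livers, against 23.8, 25.5 and 25.6 CPM in CD livers. The 8 upstream regions held 27.6, 27.5 and 24.9 CPM in HFD livers, against 38.4, 43.2 and 41.5 CPM in CD livers. Both sums lay below CD in every HFD liver, at 0.504 and 0.650 times the CD mean, while the start-site region was at 0.973 times. The log2 ratio of the sum inside the gene to the start-site signal averaged -2.35 in HFD livers and -1.40 in CD livers, a difference of -0.95. The log2 ratio of the upstream sum to the start-site signal averaged -1.27 in HFD livers and -0.69 in CD livers, a difference of -0.58. These ratios were formed after the Crot regions were seen, and no test is given for them.

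**Figure D5:**
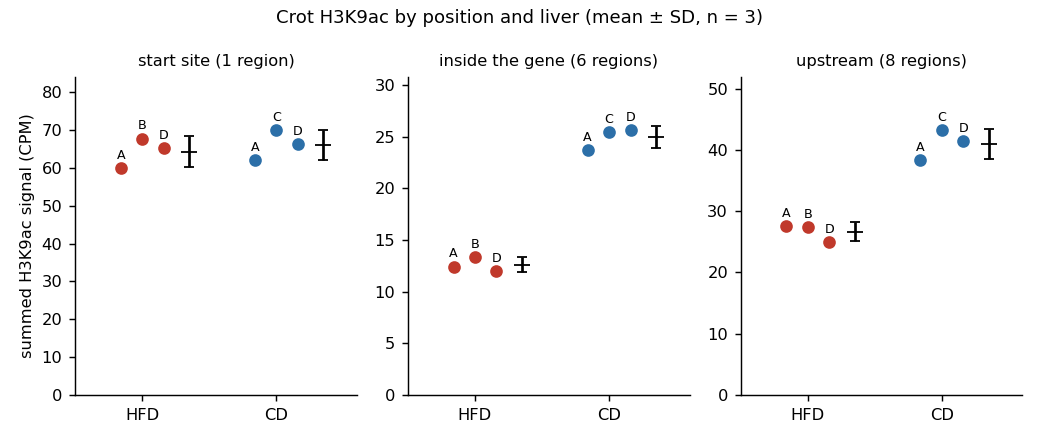
Summed H3K9ac signal (CPM, linear axes from 0, each panel with its own scale) of the Crot start-site region, the 6 regions inside the gene and the 8 upstream regions, with 1 point per liver and the mean ± SD (n = 3). HFD and CD livers overlap at the start site and do not overlap inside the gene (12.6 ± 0.72 and 24.97 ± 1.05 CPM) or upstream (26.7 ± 1.498 and 41.0 ± 2.45 CPM).

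Of 16402 genes with a region, 573 had at least 1 that passed as lower and 20, Crot among them, had at least 5. Crot also has more regions than most, since 489 genes have at least 15. On either side of Crot, 9 regions assigned to Abcb4, Tmem243 and Dmtf1 did not pass in edgeR (lowest adjusted p = 0.183) or DESeq2, although 8 of the 9 had a negative log2 fold change and 2 an unadjusted p under 0.05. Abcb4, the phospholipid transporter of the bile canaliculus, had 330, 376, 419 and 351 CPM of RNA in HFD livers, against 281, 318, 313 and 254 CPM in CD livers. Its diets did not overlap, with HFD higher, but it did not pass (log2 fold change 0.34, adjusted p = 0.106), except in DESeq2 (adjusted p = 0.0448). Tmem243 (0.12, adjusted p = 0.591) and Dmtf1 (-0.20, adjusted p = 0.258) did not pass. The HFD H3K9ac libraries compared did not include the letter C, which marks the HFD RNA library with Crot inside the CD range. Whether a letter marks the same liver in both assays is not stated.

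Among other genes of peroxisomal beta-oxidation, 2 of 21 measured rose in HFD livers and 0 fell in edgeR, with 8 higher and 2 lower at an unadjusted p under 0.05 and 5 higher and 0 lower in DESeq2. The list had a median log2 fold change of 0.15. Abcd2, a peroxisomal ABC transporter of very long-chain acyl-CoA, rose to 27.03, 43.6, 20.4 and 46.4 CPM in HFD livers, against 5.53, 15.9, 10.4 and 15.9 CPM in CD livers (log2 fold change 1.52, SE 0.34, adjusted p = 0.0238). The diets did not overlap. The call was lost without HFD B (adjusted p = 0.0825), HFD D (0.0544) or CD C (0.0728).

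Of 21 measured genes of other peroxisomal metabolism, 2 rose and 2 fell in edgeR (median 0.03), where 7.27% of all genes passed. At an unadjusted p under 0.05, 5 were higher and 2 lower, and DESeq2 called 4 higher and 2 lower. Uox, urate oxidase, rose to 3055 ± 476 CPM in HFD livers, against 1616 ± 164 CPM in CD livers (log2 fold change 0.92, adjusted p = 0.00266). Hao2, a hydroxyacid oxidase, rose to between 0.487 and 1.51 CPM in HFD livers, against 0 to 0.119 CPM in CD livers, where 3 reads are worth 0.0842 to 0.0919 CPM. Pxmp4, a peroxisomal membrane protein, fell to 56.0 ± 7.01 CPM in HFD livers, against 100.5 ± 4.12 CPM in CD livers (log2 fold change -0.84, adjusted p = 0.000916). Hacl1, a lyase of alpha-oxidation, fell to 212 ± 26.6 CPM in HFD livers, against 382 ± 38.6 CPM in CD livers (log2 fold change -0.85, adjusted p = 0.00187; SD, n = 4 each). In these 4 genes, named because they passed, the diets did not overlap, which held for 14.3% of all genes.

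Among 19 genes of peroxisome biogenesis and division, 2 rose and 0 fell in edgeR (median 0.11), with 3 higher and 0 lower at an unadjusted p under 0.05 and the same count, 2 and 0, in DESeq2. Pex7, the import receptor for proteins with the second targeting signal, which thiolase carries, rose to 78.0 ± 7.11 CPM in HFD livers, against 55.5 ± 4.57 CPM in CD livers (log2 fold change 0.49, adjusted p = 0.0149). Pex26, a membrane anchor of the receptor recycling machinery, rose to 26.1 ± 2.11 CPM in HFD livers, against 19.2 ± 1.30 CPM in CD livers (log2 fold change 0.44, adjusted p = 0.024). The Pex7 call was lost without HFD B, CD B or CD C (adjusted p from 0.0506 to 0.0653). The Pex26 call was lost without HFD B, HFD C, HFD D, CD B, CD C or CD D (adjusted p from 0.0535 to 0.0832), with library totals (0.0564) and with the replicate block (0.0592). Over the 3 lists, 6 of 61 rose, 2 fell and 53 did not pass, where 7.27% of all genes passed, and the median of 0.07 stands beside 0.01 over all genes.

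Of 22 genes for PPAR-alpha, its partners and its targets outside the peroxisome, 5 rose and 2 fell in edgeR (median 0.21), where 7.27% of all genes passed, with 8 higher and 3 lower at an unadjusted p under 0.05 and 6 higher and 2 lower in DESeq2. Ppara itself rose to 457, 605, 518 and 513 CPM in HFD livers, against 248, 258, 318 and 233 CPM in CD livers (log2 fold change 0.99, SE 0.13, adjusted p = 0.00116). Cpt1a, the gate of mitochondrial import, rose by 0.89 (adjusted p = 0.00131) and Ppargc1a, a coactivator, by 0.98 (adjusted p = 0.0119) on the log2 scale. Acadl, a mitochondrial acyl-CoA dehydrogenase, rose by 0.44 (adjusted p = 0.0213) and Vnn1, a pantetheinase, by 0.59 (adjusted p = 0.0422). Pdk4, a kinase that restrains pyruvate oxidation, fell to 3.82, 3.16, 3.87 and 3.22 CPM in HFD livers, against 18.7, 24.3, 29.8 and 44.4 CPM in CD livers (log2 fold change -3.06, SE 0.25, adjusted p = 0.000122). Acot1, an acyl-CoA thioesterase with near-identical neighbours, fell to 9.28 ± 1.17 CPM in HFD livers, against 17.5 ± 3.13 CPM in CD livers (log2 fold change -0.92, adjusted p = 0.00506). Members of this list thus moved in both directions. The Acadl call was lost without HFD B, CD A, CD B or CD C (adjusted p up to 0.0891), and the Vnn1 call without any 1 library except CD B (up to 0.121). Both were also lost with the replicate block (0.0521 for Acadl, 0.0516 for Vnn1), and Vnn1 with library totals (0.0929) and with the filter at the median level (0.0598).

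In H3K9ac, 280 regions were assigned to the other peroxisomal genes, of which 5 rose and 10 fell, where 2.39% of all regions passed. Acot4 and Acot3, peroxisomal thioesterases that lie side by side and have close paralogs, rose near their starts. The Acot3 region at 1.70 kb had 28.0 ± 12.6 CPM in HFD livers, against 11.7 ± 0.997 CPM in CD livers (SD, n = 3 each; log2 fold change 1.27, adjusted p = 1.37e-07). That of Acot4 at 0.318 kb had 67.8 ± 8.37 CPM in HFD livers, against 45.6 ± 5.73 CPM in CD livers (log2 fold change 0.58, adjusted p = 3.75e-05). Their RNA did not pass (adjusted p = 0.0813 for Acot3 and 0.0799 for Acot4). An intragenic Abcd2 region at 1.11 kb rose with its RNA, to 6.23 ± 1.32 CPM in HFD livers, against 2.55 ± 0.57 CPM in CD livers (SD, n = 3 each; log2 fold change 1.31, adjusted p = 9.95e-05). The other 2 that rose were at Cat, catalase (0.52, adjusted p = 0.0206), and Fis1, a division factor (0.47, adjusted p = 0.0414).

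Agxt, alanine-glyoxylate aminotransferase, held 5 of the 10 regions that fell, its start-site region among them. That region, at 0.43 kb, fell to 51.9, 45.5 and 50.3 CPM in HFD livers, against 76.4, 77.5 and 75.8 CPM in CD livers (log2 fold change -0.64, SE 0.09, adjusted p = 4.17e-07). The Agxt region 6.60 kb upstream fell by 1.13 on the log2 scale (adjusted p = 1.28e-05), that at 2.76 kb inside the gene by 0.66 (adjusted p = 0.00116) and that 11.2 kb upstream by 0.97 (adjusted p = 0.00429). Agxt RNA was at 322, 291, 238 and 255 CPM in HFD livers, against 215, 107, 197 and 199 CPM in CD livers, higher in HFD without overlap but not past the threshold (log2 fold change 0.62, adjusted p = 0.0954). Agxt and Crot each held 5 regions that fell. For Agxt 1 of the 5 was over the start site, and for Crot 0 of the 5. Single regions fell 25.6 kb upstream of Nudt7 (-1.58, adjusted p = 0.00154), 18.2 kb from the Mlycd start (-0.62, adjusted p = 0.00478), at Acox2 (-0.33, adjusted p = 0.0289), inside Pxmp4 (-0.87, adjusted p = 0.015), with its RNA, and 18.0 kb upstream of Pex5 (-0.88, adjusted p = 0.000203). When 1 library was left out, these single calls were lost for Nudt7 (CD C), Mlycd (HFD A, HFD B, CD A or CD C), Acox2 (HFD B, HFD D, CD A or CD C), Pxmp4 (HFD B or CD A), Cat (HFD A, HFD B, CD A or CD D) and Fis1 (all but HFD D), with adjusted p up to 0.581, and Agxt lost the 2.76 kb call without HFD B and the 11.2 kb call without HFD B or CD D (up to 0.0703).

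For the PPAR-alpha list, 5 of 138 regions rose and 0 fell in edgeR. Of all regions 2.39% passed in either direction, and 1.55% passed as lower. In the list, 14 were higher and 3 lower at an unadjusted p under 0.05. DESeq2 called 3 higher and 0 lower. The region over Fgf21, a secreted fasting hormone, rose to 34.3 ± 3.90 CPM in HFD livers, against 17.8 ± 4.21 CPM in CD livers (log2 fold change 0.95, adjusted p = 4.14e-07). Fgf21 RNA had 1.25 CPM in HFD livers and 1.74 CPM in CD livers on average and did not pass (log2 fold change -0.47, adjusted p = 0.567). The other 4 were inside Ppara, and the strongest, 4.18 kb from its start, rose to 40.5 ± 4.37 CPM in HFD livers, against 27.8 ± 1.91 CPM in CD livers (log2 fold change 0.55, adjusted p = 0.000686; SD, n = 3 each). The remaining Ppara regions, at 37.7, 36.7 and 7.44 kb, rose by 1.08, 1.30 and 0.41 on the log2 scale, and each lost its call without HFD B (adjusted p of 0.0948, 0.273 and 0.340), among other libraries.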

How the data were processed

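Per the file headers, the authors deposited raw read counts per gene (RNA) and per H3K9ac region, with log2 FPKM and log2 fold changes, and p-values with FDR values from their own comparison. Per the submitters' processing notes, reads were placed on mm10. No label or header names the aligner, peak caller, test or whether strand was used. From the counts, each table was fitted whole with edgeR 4.0.16 in R 4.3.3 (TMM, filterByExpr, which removed no feature, quasi-likelihood test, Benjamini-Hochberg adjustment over all features, threshold 0.05). The RNA table held 12334 genes and 4999 blank lines, and 72 repeated lines of the H3K9ac table were dropped. No gene in the RNA table averaged under 13.9 counts, and weaker genes were not compared. CPM values use TMM-scaled totals, and intervals cover the spread modelled by edgeR.

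The members and gene lists were chosen with earlier results of these data known. Named were all 7 members, up to 8 genes and 6 regions per list with the smallest p past the threshold, and the 3 genes most like each called member. Exceptions are said in the text or are the neighbours of Crot and the RNA of Acot3, Acot4, Agxt and Fgf21, whose regions were named. Some genes that the rule names are not reported here. Alternatives were DESeq2 1.42.0, library totals, no filter, a filter at the median level, each library left out, and a block by letter. The labels do not say that letters pair the livers, so the letters were not taken to pair them. Same-lettered samples had correlated deviations of -0.22 to 0.29 in the RNA, which cannot decide this with 4 libraries per diet. The fit was also run on simulated counts, in which only features at or above the median level were changed. In the simulated H3K9ac counts a part of the changed regions was not recovered. How well it finds changes in weaker features was not tested. Distances run from the middle of a region to the start site the authors assigned. Sequences are from RefSeq.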

Additional observations from a re-analysis of the deposited data

Results flagged for a closer look

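Among the 4 HFD livers, Ehhadh RNA in liver D stood apart from the other 3: its 225 CPM lay below 298, 299 and 304 CPM. On the log2 scale, the gap to its nearest neighbour was 0.932 of the whole range of the HFD group, above the critical value for 4 samples. Chance flags about 1 in 20 such groups, and 14 groups, 7 genes in each of the 2 diets, were looked at. HFD liver D also had the lowest level of Pex11a (22.6 CPM), Acaa1b (439 CPM), Acaa1a (93.9 CPM), Abcd3 (697 CPM) and Hsd17b4 (481 CPM), and the highest mean level of macrophage markers (0.84 on the log2 scale over the CD mean). The part of those markers in these levels was not tested. Without that liver the log2 fold change of Ehhadh RNA was -0.12 (adjusted p = 0.657), against -0.21 (adjusted p = 0.419) with it.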

How the results depend on the processing

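The number of members called in the RNA was 1 in the main fit, 2 with DESeq2 (Pex11a and Crot) and 0 to 1 when each library was left out. For the other peroxisomal genes it was 8, with 13 in DESeq2 and 5 to 11 with a library left out. Of the member regions 5 were called, 4 with DESeq2, 3 with the replicate block over letters A and D, and 3 to 6 with a library left out, the 3 being without HFD B. Of the regions of the other peroxisomal genes 15 were called, 10 with DESeq2, and 7 to 16 with a library left out. The calls lost with DESeq2 include those at Acox2 (adjusted p = 0.158), Pxmp4 (0.0649) and Fis1 (0.117). The replicate block gave 1 member gene, 7 other genes and 14 other regions, and it gave the Ehhadh start-site region a log2 fold change of 0.068 in place of -0.02. Some results near 0 changed sign with a library left out: Acaa1b RNA (-0.38 to 0.091), and the regions at the starts of Ehhadh (-0.12 to 0.076), Acaa1a (-0.00043 to 0.11) and Crot (-0.084 to 0.0096), and 46.9 kb (-0.21 to 0.023) and 37.8 kb (-0.23 to 0.10) upstream of Crot. The Crot regions at 2.57, 4.48 and 36.4 kb passed in all 11 alternatives, and that at 49.4 kb in 9 of 11. Among these alternatives, no filter repeats the main fit, since the filter removed no feature, so it adds no check. Letters gave correlations of 0.29 (A), 0.06 (B), 0.23 (C) and -0.22 (D) in the RNA, and 0.09 (A) and 0.08 (D) in H3K9ac. Causes of these shifts were not tested. The median region held 2.65 CPM, and 3 livers per diet limit the precision of such regions.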
